A study of Mus musculus with 12 samples.

Results

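Integrins are the receptors with which cells hold on to the matrix, and laminins are a main matrix protein that they hold on to. The genes described here are those of the deposited table whose name, or a part of a joined name, is that of an integrin alpha or beta subunit or of a laminin alpha, beta or gamma chain. That rule found 37 of 37750 rows: 26 integrins and 11 laminins. Itga10 lies in a row whose value it shares with another gene, and that row's values are left out.

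The series measured RNA in Ad/NICD mice of a 129 x C57BL/6 cross. In these animals adipocytes carry a constantly active Notch1 (its intracellular domain), and liposarcoma, a malignant tumour of the fat lineage, develops. The labels do not name the Cre that restricts the transgene. From what is known of this line, it is driven by the adiponectin promoter, so other cells of the tissue are not its target. The groups were white adipose tissue (WAT, 4 libraries) from animals 3 weeks of age and liposarcoma (LPS, 8 libraries) from animals 9 to 12 months of age. Both groups carry the transgene, and no tissue without it is analysed here. Age and tissue change together, so the parts they play in a difference between LPS and WAT cannot be told apart. The labels call the libraries biological replicates. In bulk tissue, fewer cells of a type and less RNA per cell cannot be told apart either.

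An integrin is a heterodimer of an alpha and a beta subunit that spans the cell membrane, binds matrix or a counter-receptor outside and couples to actin inside through talin and kindlin. Which alpha subunit joins beta1 decides the ligand: alpha3, alpha6 and alpha7 bind laminin, alpha1, alpha2, alpha10 and alpha11 bind collagen, and alpha5, alpha8 and alphaV bind matrix proteins with an RGD motif. The beta2 and beta7 subunits serve leukocytes. A laminin is a trimer of an alpha, a beta and a gamma chain that forms the sheet of the basement membrane, the layer that encases every fat cell and underlies blood vessels.

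The tissue labels were set against marker genes. The summed level of 8 adipocyte markers was 5038 to 6728 FPKM (fragments counted per transcript length and sequencing yield) across WAT, but 2.63 to 39.1 FPKM across LPS. All 8 were lower in LPS, and the tumours with the highest sums were LPS 5, where Cfd measured 27.2 FPKM, and LPS 1, where Plin1 measured 32.2 FPKM. In contrast, 8 pericyte markers summed to 221 to 238 FPKM across WAT, but 3572 to 7842 FPKM across LPS. WAT 1 and WAT 4 held 1525 and 1436 FPKM of 5 skeletal muscle markers, against 26.1 and 219 FPKM in WAT 2 and WAT 3. Among the tumours that sum was 407 FPKM in LPS 8, 103 FPKM in LPS 1 and 53.9 FPKM in LPS 4. The other tumours held 0.916 to 9.25 FPKM. LPS 5 read low for most genes, with a median ratio of 0.814 to the geometric mean of the libraries against 0.991 to 1.06 in the others. On a 4 kb transcript, a value of 1 fragment came to about 0.00903 FPKM in WAT 1, the deepest library by that measure, and about 0.0235 FPKM in LPS 1, the shallowest.

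The stretches just before the RefSeq transcription start of 4 genes are shown because these are the 2 integrins with the largest rise in LPS and the 2 laminins called higher. RefSeq's promoter table had an entry for 23 of the 37 members. Each is given 5′ to 3′ on the gene's own strand in build GRCm38.p6, as a window of 250 bases ending at the base before the RefSeq start. GENCODE M21 places the start elsewhere for 2 of them. Its start of Lama2 lies 2816 bases further upstream, so that window is inside the GENCODE gene, and its start of Lamb1 lies 59 bases upstream, so the last 59 bases of that window are not shown. Capitals mark TGGGAA, the core of the site that RBPJ, the DNA-binding partner of the Notch intracellular domain, recognises, in either orientation (TGGGAA or TTCCCA). The intervals are chr13:115101965-115102214, minus strand for Itga1, chr2:83724147-83724396, plus strand for Itgav, chr10:27616943-27617192, minus strand for Lama2 and chr12:31265043-31265233, plus strand for Lamb1.
Itga1: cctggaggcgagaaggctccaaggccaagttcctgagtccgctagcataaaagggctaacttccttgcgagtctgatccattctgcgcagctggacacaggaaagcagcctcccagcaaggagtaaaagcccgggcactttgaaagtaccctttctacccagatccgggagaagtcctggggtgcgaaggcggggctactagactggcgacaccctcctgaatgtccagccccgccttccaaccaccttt
Itgav: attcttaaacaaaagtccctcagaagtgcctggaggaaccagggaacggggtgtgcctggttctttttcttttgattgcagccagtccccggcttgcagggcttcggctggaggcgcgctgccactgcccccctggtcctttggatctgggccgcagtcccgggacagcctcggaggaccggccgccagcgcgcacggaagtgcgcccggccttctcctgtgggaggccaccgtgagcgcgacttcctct
Lama2: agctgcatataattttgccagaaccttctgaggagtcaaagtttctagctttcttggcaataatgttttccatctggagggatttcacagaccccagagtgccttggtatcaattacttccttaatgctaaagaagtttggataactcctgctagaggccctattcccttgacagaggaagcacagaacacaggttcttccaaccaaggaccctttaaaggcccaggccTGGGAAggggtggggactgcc
Lamb1: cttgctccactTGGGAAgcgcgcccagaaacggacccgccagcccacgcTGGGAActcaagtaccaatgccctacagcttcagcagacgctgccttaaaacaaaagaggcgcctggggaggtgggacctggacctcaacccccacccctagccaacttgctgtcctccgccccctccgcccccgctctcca
The motif started 21 bases before the RefSeq start of Lama2, and 239 and 201 bases before that of Lamb1. The windows of Itga1 and Itgav held no match, which says only that these letters are not in this stretch. Over all members with an entry, 5 of 26 windows held the motif (19.2%), against 21.6% of the 32851 windows of the whole table. The others were 1 window of Itga2b and both windows of Lamb3, genes with a lower level in LPS. A match of this kind is a description of letters and not a site.

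Of the 23 integrins with a row of their own that were expressed enough to test (1 FPKM or more in 4 or more libraries), 7 were higher and 7 lower in LPS by limma at an adjusted p below 0.05, and 9 were not called. Over all 14821 rows tested, 18.9% were called higher and 27.0% lower, so that 46.0% were called in all, against 60.9% of these integrins. Among the 9 laminins tested, 2 were higher, 2 lower and 5 not called, a share of 44.4% that is near that of all rows. The median log2 difference, LPS minus WAT on the scale of log2(FPKM + 1), was -0.28 over the integrins, 0.34 over the laminins and -0.05 over all rows. In 13 of the 32 tested members (40.6%) all LPS libraries lay on the same side of all WAT libraries, against 32.6% of all rows.

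**Figure D1:**
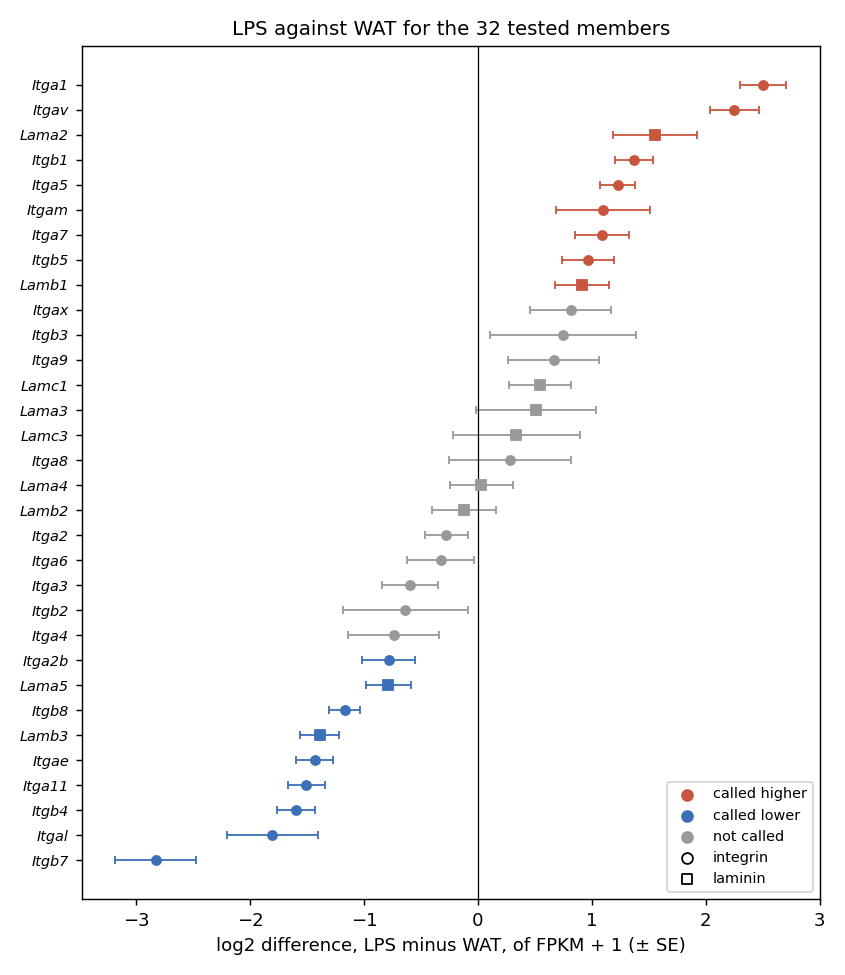
Log2 difference, LPS minus WAT, of FPKM + 1 with its standard error for the 32 tested members (circles, integrins; squares, laminins). Itga1 at 2.50 and Itgav at 2.25 lie at the upper end and Itgb7 at -2.83 at the lower end, and Lama4 lies at 0.03.

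The common partner of the matrix-binding alpha subunits led in level. Itgb1, which encodes beta1 (chromosome 8, 128685654 to 128733200, GENCODE M21 on GRCm38), measured 103, 102, 112 and 90.3 FPKM in WAT 1 to WAT 4. In LPS it ranged from 213 to 354 FPKM with a median of 243 FPKM. Every LPS library lay above every WAT library. The means were 102 ± 9.11 FPKM (SD, n = 4) and 269 ± 59.0 FPKM (SD, n = 8), 2.64-fold, with a log2 difference of 1.37 ± 0.17 (SE; limma adjusted p = 2.01e-05). Itgb1 was the highest beta subunit in each of the 12 libraries, and its share of the summed FPKM of all 8 beta subunits was 56.9% to 64.1% in WAT and 74.3% to 90.5% in LPS. These shares were added after the values were seen and carry no test.

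Itga1 rose most of all members. It encodes alpha1, which with beta1 binds collagens, type IV of the basement membrane among them (chromosome 13, 114953096 to 115101964). It measured 17.6, 17.6, 18.8 and 18.2 FPKM in WAT and ranged from 68.0 FPKM in LPS 5 through a median of 110 FPKM to 182 FPKM in LPS 6. The groups did not overlap, and the WAT libraries lay close together. The difference was 6.16-fold, log2 2.50 ± 0.21 (limma adjusted p = 5.63e-07). The gene Pelo lies inside the same locus, at 8.85 and 23.1 FPKM in WAT and LPS, and the sources used here do not state how fragments there were divided.

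The other collagen receptors were lower or not called. Itga2, the collagen receptor gene that lies 26.0 kb from the table's locus of Itga1, ranged from 0.799 to 1.38 FPKM across WAT and from 0.273 to 1.18 FPKM across LPS and was not called (log2 -0.28 ± 0.19, limma adjusted p = 0.244). Its direction turned after quantile normalization (0.12, adjusted p = 0.623). Itga11, which encodes a receptor of fibroblasts for fibrillar collagen, measured 3.03, 2.02, 2.61 and 2.25 FPKM in WAT. In LPS it ran from 0.0274 to 0.817 FPKM with a median of 0.111 FPKM, a level of few fragments in several tumours. All LPS libraries were below all WAT libraries, with LPS 5 the highest tumour, and the gene fell 10.4-fold in the mean (log2 -1.51 ± 0.16, limma adjusted p = 6.97e-06). Markers of fibroblasts moved with it: 5 of 6 were lower, and their sum was 865 to 1473 FPKM across WAT, but 32.7 to 358 FPKM across LPS, again highest in LPS 5. Their part in the fall of Itga11 was not tested.

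Among the receptors for RGD ligands, the subunits that most cells carry rose. Itgav, the gene of alphaV (chromosome 2, 83724397 to 83806916), which binds vitronectin and fibronectin and helps to activate TGF-beta, measured 18.4, 16.0, 17.9 and 16.8 FPKM in WAT. In LPS it ran from 49.4 FPKM (LPS 5) through 87.7 FPKM to 126 FPKM (LPS 6), with no overlap. It was 5.17-fold higher, log2 2.25 ± 0.22 (limma adjusted p = 2.24e-06). Itga5, the gene of the fibronectin receptor subunit alpha5, measured 6.27, 5.41, 5.49 and 3.94 FPKM in WAT, whereas LPS held 9.42 to 16.3 FPKM with a median of 14.5 FPKM. Its groups were apart too, and the tumours lay close together. The rise was 2.60-fold (log2 1.23 ± 0.16, adjusted p = 2.88e-05). Itgb5, a beta subunit that pairs with alphaV, was higher at 17.8 ± 5.18 and 35.8 ± 10.0 FPKM (log2 0.96 ± 0.23, adjusted p = 0.00380), and its call was lost without WAT 1 and WAT 4 (adjusted p = 0.0705).

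The remaining RGD subunits were lower or uneven. Itgb8, whose product binds latent TGF-beta together with alphaV, fell from 1.83 ± 0.280 to 0.264 ± 0.188 FPKM with no overlap (log2 -1.17 ± 0.14, limma adjusted p = 1.20e-05). Itga2b, the gene of the platelet fibrinogen receptor subunit, fell from 3.58 ± 0.862 to 1.73 ± 0.836 FPKM (adjusted p = 0.0144). The call for Itga2b was lost without WAT 2 (adjusted p = 0.0568), the highest WAT library at 4.83 FPKM, and after quantile normalization (adjusted p = 0.0699). Of 6 platelet and megakaryocyte markers only Pf4 passed the filter, at 23.6 to 39.9 FPKM across WAT and 11.8 to 91.9 FPKM across LPS, and it was not called. The 6 summed to 25.3 to 41.1 FPKM across WAT and 14.7 to 108 FPKM across LPS, and their part in the level of Itga2b was not tested. Itgb3, the partner of alphaV and of the platelet subunit, spread too widely to be called: 4.17 to 6.44 FPKM across WAT and 0.658 FPKM (LPS 3) to 27.98 FPKM (LPS 4) across the tumours, with 6 tumours above all WAT libraries and 2 below (log2 0.74 ± 0.64, adjusted p = 0.366). Itga8, a partner of beta1 in mesenchymal cells, was not called either (adjusted p = 0.702) and reached 13.4 FPKM in LPS 6 against at most 4.68 FPKM elsewhere. Itgb6, an epithelial subunit, was below the filter, with LPS 8 at 1.73 FPKM and the other 11 libraries at 0 to 0.868 FPKM.

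The laminin receptors divided. Itga7, the gene of alpha7, a laminin receptor of muscle and mural cells (chromosome 10, 128933818 to 128958282), measured 39.7, 33.7, 36.0 and 49.5 FPKM in WAT, whereas LPS held 54.9 to 138 FPKM, with a median of 90.5 FPKM. All tumours lay above all WAT libraries, and the gene was 2.24-fold higher (log2 1.09 ± 0.24, limma adjusted p = 0.00214). The muscle-rich libraries WAT 1 and WAT 4 were the highest of their group, and without them the difference was 1.26 (adjusted p = 0.0128). That comparison kept LPS 8, the tumour with the most muscle markers (407 FPKM). The part of muscle in the level of Itga7 was not tested. All 8 pericyte markers, whose sums are given above, were higher in LPS as well. Smooth muscle markers were mixed: of 5 tested, Myh11 and Smtn were higher, Tagln was lower, and Acta2 and Des were not called. Cnn1 was below the filter. The part of the pericyte and smooth muscle markers in the rises of Itga7 and of Itga1 was not tested. Itga6, the most abundant integrin that was not called, measured 48.4, 44.8, 53.4 and 31.7 FPKM in WAT, whereas LPS held 18.5 to 75.5 FPKM with a median of 36.5 FPKM. The groups overlapped, with LPS 2 far above the other tumours (log2 -0.33 ± 0.29, adjusted p = 0.385). Itga3 was not called at 3.03 ± 0.260 and 1.81 ± 1.04 FPKM (adjusted p = 0.0661), and it was called lower without LPS 5 (adjusted p = 0.0220) or LPS 7 (adjusted p = 0.0208), the libraries with 3.36 and 3.44 FPKM. Array quality weights (adjusted p = 0.00326) and the 8 libraries WAT 1 to 4 and LPS 1 to 4, with a replicate block (0.00966) or without (0.00236), called it lower too.

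Itgb4, the partner of alpha6 in the hemidesmosomes of epithelia and in Schwann cells, measured 3.12, 2.94, 3.20 and 3.73 FPKM in WAT. In LPS it lay between 0.162 and 1.03 FPKM with a median of 0.332 FPKM, below every WAT library. The fall was 7.60-fold (log2 -1.60 ± 0.17, limma adjusted p = 4.99e-06). The summed markers of both cell types were lower in LPS as well. The 7 Schwann cell markers summed to 136 to 191 FPKM across WAT, but 3.56 to 11.3 FPKM across LPS, with 6 lower and Erbb3 not called. The 9 epithelial markers were all below the filter and summed to 3.63 to 17.6 FPKM across WAT, but 0.0633 to 1.05 FPKM across LPS. Within WAT the sum was 17.6 FPKM in WAT 3 and at most 5.66 FPKM in the others, whereas Itgb4 was highest in WAT 4. Their part in the fall of Itgb4 was not tested.

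Shares of the summed FPKM of the 17 alpha subunits with rows of their own put these genes side by side per length. Itga6 held 18.7% to 29.7% in WAT and 4.43% to 20.9% in LPS. Itga1 went from 9.30% to 10.7% in WAT to 21.4% to 34.2% in LPS, and Itgav from 8.49% to 10.4% to 17.0% to 27.3%. Itga7 held 17.8% to 29.1% and 15.2% to 31.8%, so its share overlapped between the groups. The sum itself was 170 to 189 FPKM across WAT, but 291 to 536 FPKM across LPS. Itga6 was the highest alpha subunit in WAT 1, WAT 2 and WAT 3 and Itga7 in WAT 4. Among the tumours Itga1 was highest in all but LPS 3 (Itga7) and LPS 7 (Itgav).

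**Figure D2:**
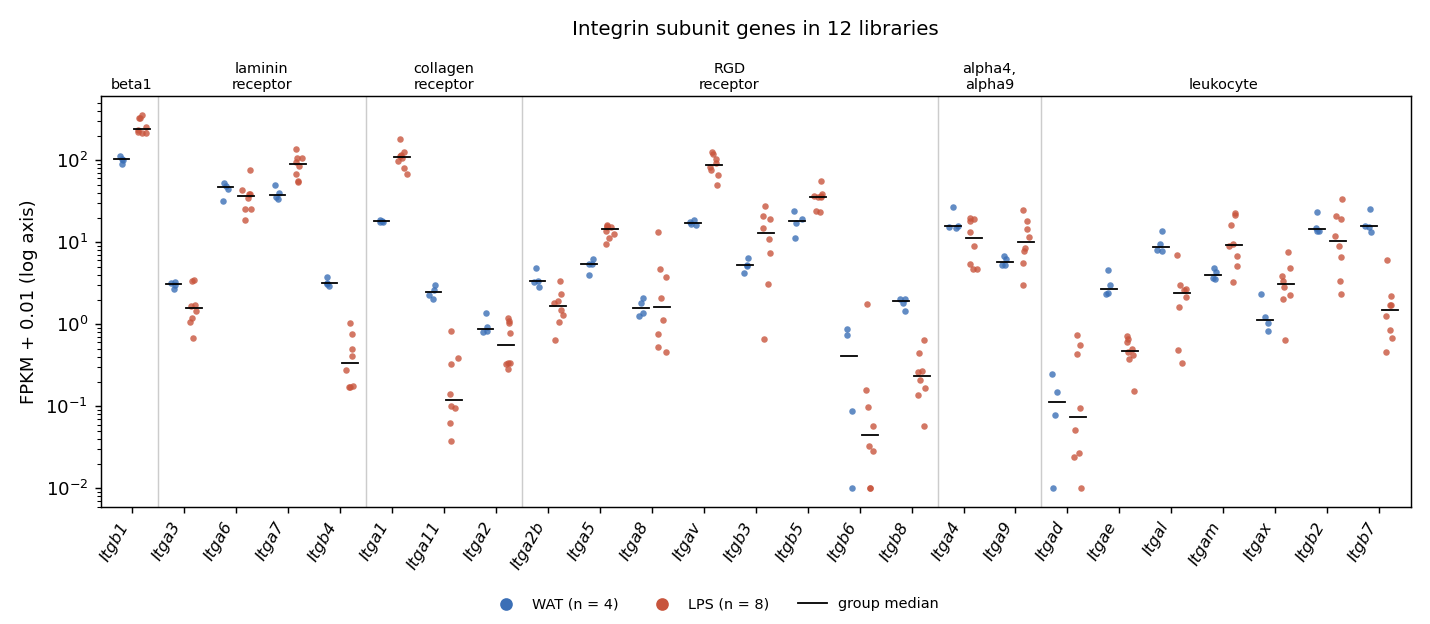
FPKM + 0.01 (log axis) of the 25 integrin genes with a row of their own in 4 WAT and 8 LPS libraries, grouped by role, with each point a library and each bar a group median. The LPS points of Itgb1, Itga7, Itga1, Itga5 and Itgav all lie above the WAT points, and those of Itgb4, Itga11, Itgb8, Itgae, Itgal and Itgb7 all lie below.

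Of the 6 leukocyte integrins tested, 3 were lower (Itgb7, Itgal and Itgae), 1 higher (Itgam) and 2 not called (Itgax and Itgb2). Itgb7, the beta subunit of gut-homing and intraepithelial lymphocytes (chromosome 15, 102215995 to 102231944), measured 15.4, 25.3, 15.7 and 13.5 FPKM in WAT. In LPS it ranged from 0.447 to 6.03 FPKM with a median of 1.48 FPKM, and LPS 1 held the highest value. The gene was 9.40-fold lower in the mean, log2 -2.83 ± 0.35 (limma adjusted p = 2.48e-05), the largest fall of all members. Itgal, the alpha subunit of LFA-1, with which lymphocytes bind ICAMs, measured 7.92, 13.5, 8.05 and 9.55 FPKM in WAT, whereas LPS held 0.330 to 7.05 FPKM (median 2.38 FPKM). No tumour reached the WAT libraries, and LPS 1 came nearest (log2 -1.81 ± 0.40, adjusted p = 0.00249). Itgae, the partner of beta7 on tissue-resident T cells, measured 2.39, 4.53, 2.98 and 2.31 FPKM in WAT, whereas LPS held 0.145 to 0.704 FPKM (median 0.466 FPKM; log2 -1.43 ± 0.16, adjusted p = 8.74e-06), again with no overlap.

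Markers of lymphocytes moved with these genes. Of 10 markers 9 were lower, Cd4 was not called, and their sum was 111 to 211 FPKM across WAT, but 3.75 to 58.8 FPKM across LPS. WAT 2 had both the highest sum and the highest Itgb7, Itgal and Itgae. Among the tumours LPS 7 had the highest sum, of which Cd4 alone was 48.2 FPKM, and its Itgb7 was 2.21 FPKM. LPS 1, with a sum of 47.9 FPKM, had the highest Itgb7, Itgal and Itgae of the tumours. Ms4a1, a marker of B cells, was at most 0.189 FPKM in the tumours, against at least 8.91 FPKM in WAT. The part of the lymphocyte content in the falls was not tested.

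Of the integrins of macrophages and other myeloid cells, none was called lower. Itgam, the gene of CD11b (chromosome 7, 128062640 to 128118491), measured 3.55, 4.90, 3.65 and 4.36 FPKM in WAT and 3.31 (LPS 8) to 22.7 FPKM (LPS 5) in LPS, with a median of 9.26 FPKM. In 7 of 8 tumours it lay above all WAT libraries. The call was narrow (log2 1.10 ± 0.41, limma adjusted p = 0.0449). It was lost without any single WAT library (adjusted p = 0.0693 to 0.103), without LPS 1, LPS 3, LPS 5, LPS 6 or LPS 7 (0.0563 to 0.0700), and without WAT 1 and WAT 4 (0.206). It was also lost in the exact permutation test (adjusted p = 0.0881), with no filter on low values (0.0699) and under the replicate block (0.0672). Its neighbour Itgax, the gene of CD11c, 1.4 kb away, lay at 1.34 ± 0.660 and 3.44 ± 2.12 FPKM and was not called (adjusted p = 0.0772), but was called higher without LPS 8 (adjusted p = 0.0124), its lowest tumour, after quantile normalization (0.0133), with array quality weights (0.0164) and in WAT 1 to 4 with LPS 1 to 4 alone (0.0362). Itgad, next in the row and 3.7 kb further, was below the filter at no more than 0.730 FPKM.

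Itgb2, the beta subunit that the lymphocyte and myeloid alpha subunits share, was not called. It measured 13.6, 23.5, 13.8 and 15.1 FPKM in WAT, whereas LPS held 2.35 to 33.3 FPKM, with a median of 10.4 FPKM (log2 -0.64 ± 0.55, limma adjusted p = 0.365). LPS 8 and LPS 4 were the lowest, and LPS 7 was the highest of all libraries. Of 9 macrophage markers 4 were higher, 1 lower and 4 not called, and their sum was 217 to 315 FPKM across WAT and 250 to 874 FPKM across LPS. LPS 8 and LPS 4 held the lowest macrophage sums of the tumours, at 250 and 263 FPKM, within the range of WAT. The highest was 874 FPKM in LPS 1, where Itgb2 was 20.9 FPKM, and LPS 7 held 642 FPKM. Sums of 7 leukocyte markers were also lowest in LPS 8 and LPS 4 (105 and 108 FPKM) and highest in LPS 1 (555 FPKM), against 365 to 758 FPKM across WAT. The part of the macrophage or leukocyte content in the values of Itgam, Itgax and Itgb2 was not tested. Itga4 and Itga9, whose products bind VCAM-1 and matrix ligands, were not called at 18.2 ± 5.59 and 11.8 ± 6.65 FPKM and at 5.96 ± 0.770 and 11.7 ± 7.10 FPKM (adjusted p = 0.147 and 0.198). Without LPS 8, at 2.98 FPKM its lowest library, Itga9 was called higher (adjusted p = 0.0435).

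**Figure D3:**
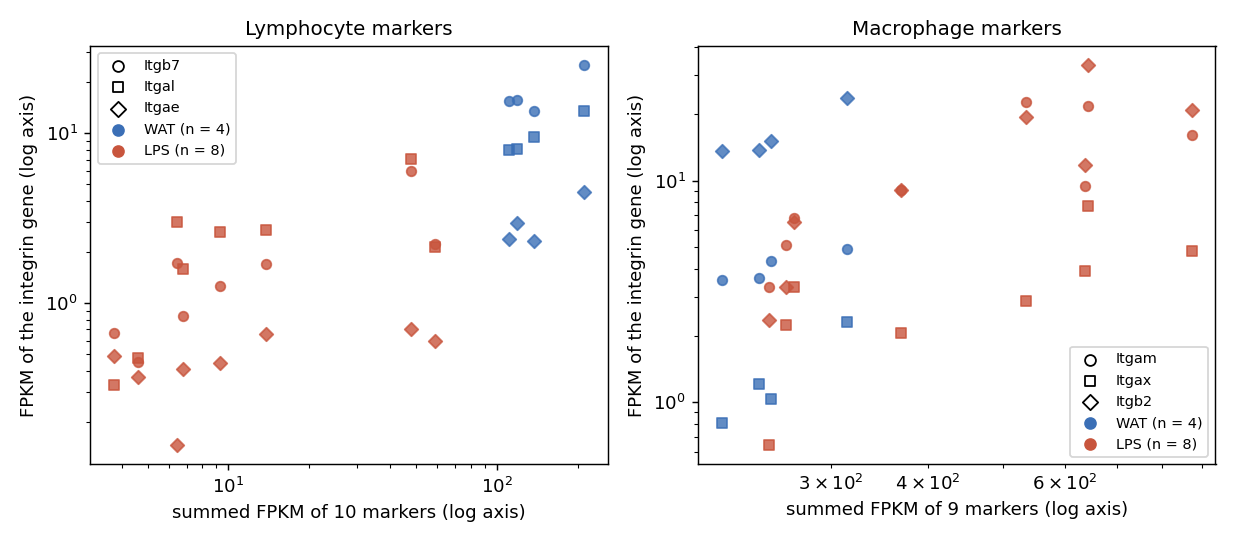
FPKM of leukocyte integrins against the summed FPKM of 10 lymphocyte markers (left) or 9 macrophage markers (right) in each library, all on log axes. On the left the WAT libraries hold the highest marker sums and the highest Itgb7, Itgal and Itgae, and on the right Itgam and Itgax are spread over the tumours along with a marker sum of 250 to 874 FPKM.

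Of the laminin alpha chains 1 rose, 1 fell and 2 were not called. Lama2, the alpha chain of muscle and nerve basement membranes (chromosome 10, 26980036 to 27619758), measured 16.1, 12.4, 20.9 and 13.1 FPKM in WAT. In LPS it ran from 17.5 FPKM (LPS 5) through a median of 43.0 FPKM to 100 FPKM (LPS 6), and 7 of 8 tumours lay above all WAT libraries. It was 3.39-fold higher, log2 1.56 ± 0.37 (limma adjusted p = 0.00387). Without WAT 1 and WAT 4 the difference was 1.49, and the call was lost (adjusted p = 0.0525).

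Lama4, the alpha chain of fat and vessel basement membranes and the most abundant alpha chain in each of the 12 libraries, was not called. It measured 87.4 ± 5.08 FPKM in WAT and 95.6 ± 39.4 FPKM in LPS, where it ran from 44.1 FPKM (LPS 7) to 174 FPKM (LPS 6), with a log2 difference of 0.03 ± 0.28 (adjusted p = 0.945) whose sign turned without WAT 4, without LPS 2, without LPS 6 and without both WAT 1 and WAT 4. Lama5, the alpha chain of mature epithelial and vessel basement membranes (chromosome 2, 180176373 to 180225859), measured 8.78, 9.98, 11.1 and 8.47 FPKM in WAT, whereas LPS held 2.57 to 7.12 FPKM (median 5.26 FPKM). Each tumour was below each WAT library (log2 -0.79 ± 0.20, limma adjusted p = 0.00554). Of 8 endothelial markers 5 were lower (Pecam1, Cdh5, Kdr, Tek and Cldn5), 2 higher (Emcn and Esam) and Tie1 not called. Their sum was 214 to 315 FPKM across WAT and 243 to 423 FPKM across LPS. In the mean Esam rose from 37.2 to 154 FPKM and Emcn from 10.8 to 54.4 FPKM. Pecam1 fell from 58.6 to 26.0 FPKM and Cldn5 from 57.8 to 12.1 FPKM, so the sum hides opposite changes. The part of these markers in the fall of Lama5 was not tested. Lama3, an epithelial alpha chain, was not called (adjusted p = 0.456) and stood at 14.6 FPKM in LPS 2, the other tumours lying at 0.353 to 4.01 FPKM. Lama1, the chain of the embryo's earliest basement membranes, lay below the filter at 0 to 0.391 FPKM.

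As shares of the summed alpha chains, Lama2 held 10.8% to 17.3% in WAT and 15.3% to 45.5% in LPS. Lama4 held 72.4% to 79.2% and 46.4% to 76.1%, and Lama5 7.51% to 9.20% and 1.33% to 7.03%. LPS 5 stood nearest to WAT, with 76.1% Lama4 and 15.3% Lama2. These shares are a description without a test.

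Of the beta chains, Lamb1 rose and Lamb3 fell. Lamb1 (chromosome 12, 31265234 to 31329644), the usual beta chain of the basement membrane, measured 86.7, 80.6, 87.1 and 57.2 FPKM in WAT. In LPS it ranged from 78.0 FPKM in LPS 5 to 217 FPKM in LPS 6 with a median of 152 FPKM, and 7 tumours lay above all WAT libraries. The difference was 1.95-fold, log2 0.91 ± 0.24 (limma adjusted p = 0.00739), and without WAT 1 and WAT 4 it was 0.79 (adjusted p = 0.0915), no longer a call. Lamb2, its counterpart at synapses and in vessel walls, was not called at 36.8 ± 4.28 and 36.4 ± 16.9 FPKM (adjusted p = 0.751). The share of Lamb1 among the beta chains was 60.5% to 70.2% in WAT and 70.2% to 89.7% in LPS.

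Lamb3 (chromosome 1, 193207699 to 193343878) encodes the beta chain of the laminin that anchors epithelia. It measured 1.17, 1.19, 1.59 and 3.46 FPKM in WAT. It was listed at 0 in LPS 2, LPS 4 and LPS 7 and reached 0.158 FPKM in LPS 6, with a median of 0.0275 FPKM over the tumours. That is a level of a few fragments, and no tumour came near the WAT libraries (log2 -1.39 ± 0.17, limma adjusted p = 2.23e-05). The summed epithelial markers were lower in LPS as well, as given for Itgb4. Within WAT that sum was highest in WAT 3, whereas Lamb3 was highest in WAT 4. The part of these markers in the fall of Lamb3 was not tested. Of the partner chains of that laminin, Lama3 was not called.

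Of the gamma chains described here none was called. Lamc1, the gamma chain of nearly every laminin and the most abundant laminin not called (chromosome 1, 153218922 to 153332786), measured 98.1, 77.7, 94.3 and 81.1 FPKM in WAT. In LPS it ran from 80.8 to 240 FPKM with a median of 129 FPKM, and 6 of 8 tumours lay above all WAT libraries (log2 0.54 ± 0.27, limma adjusted p = 0.116). It was called higher after quantile normalization (adjusted p = 0.0239), with array quality weights (0.0194), and in WAT 1 to 4 with LPS 1 to 4, under a replicate block (0.0315) or without (0.0118). Lamc3, a gamma chain of specialised basement membranes, spread from 0.280 FPKM in LPS 6 to 14.1 FPKM in LPS 1, against 1.47 to 2.62 FPKM in WAT (adjusted p = 0.651).

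**Figure D4:**
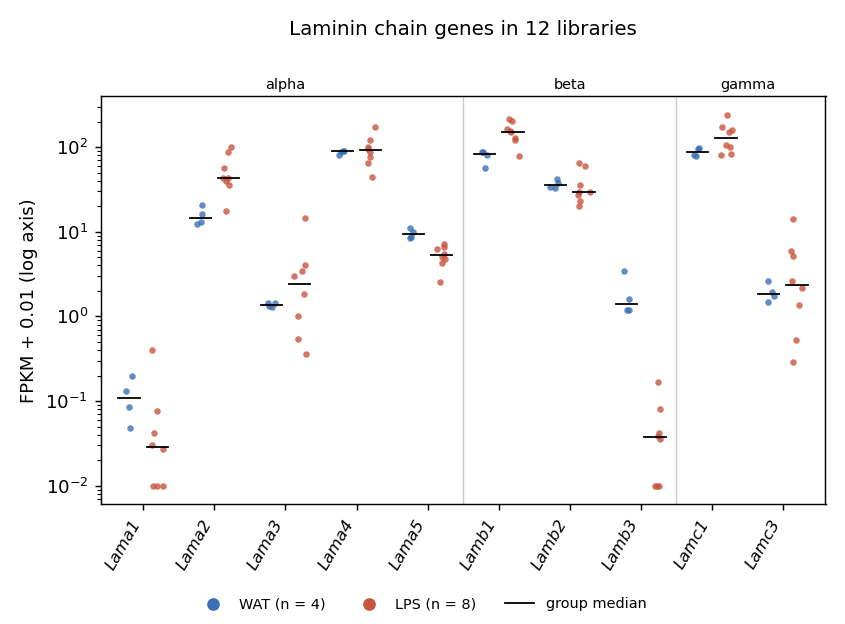
FPKM + 0.01 (log axis) of 10 laminin genes in 4 WAT and 8 LPS libraries, grouped by chain position, with each point a library and each bar a group median. Lama2 and Lamb1 lie mostly higher in LPS, Lama5 and Lamb3 lie lower without overlap, and Lama4 and Lamb2 spread around their WAT level.

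**Figure D5:**
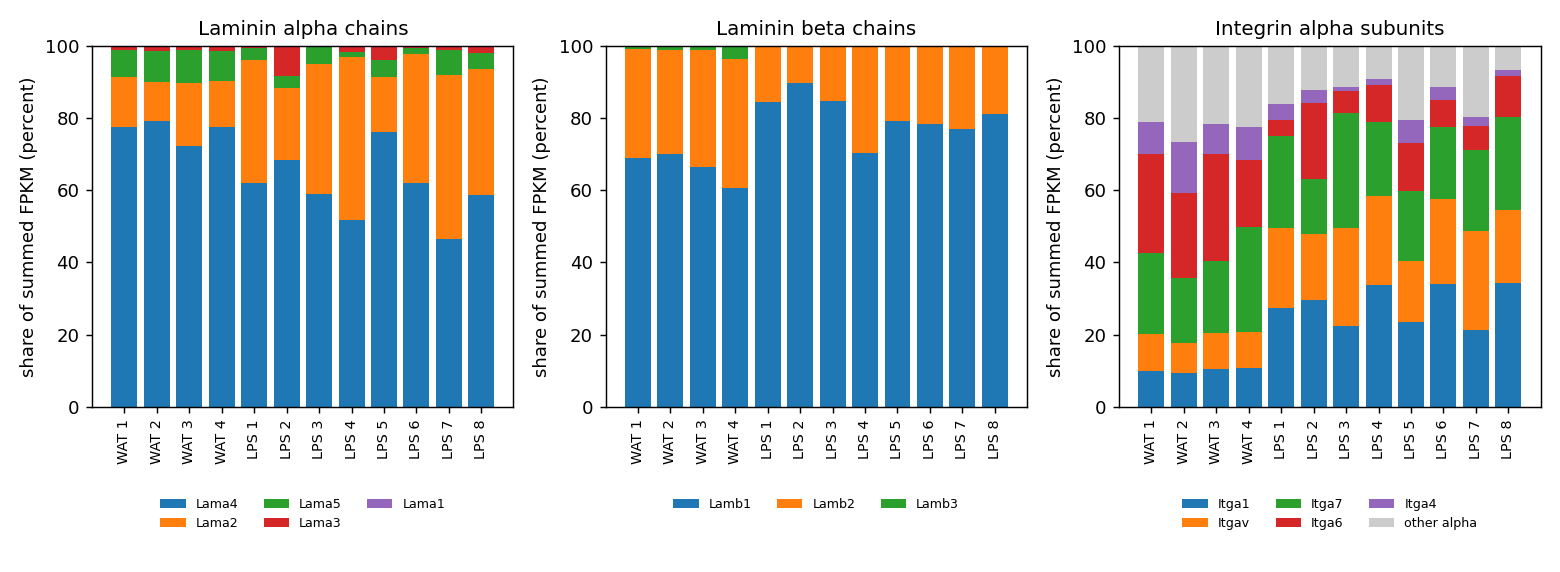
Share of the summed FPKM of laminin alpha chains (left), laminin beta chains (middle) and integrin alpha subunits (right) in each of the 12 libraries, in percent. The share of Lama2 reaches 45.5% in LPS 7, that of Lamb1 89.7% in LPS 2, and Itga1 with Itgav takes more of the alpha subunits in every tumour than in any WAT library.

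Tumours differed among themselves more than young fat did. The coefficient of variation over libraries had a median of 56.8% in LPS and 17.9% in WAT over the 32 tested members, against 30.0% and 14.1% over all 14821 rows, and it was larger in LPS for 30 of the 32 (93.8%; all rows 89.0%). Itgb1 and Itga5 varied least as a ratio of highest to lowest tumour (1.66 and 1.73). Lamc3, Itgb3 and Lama3 varied most among members never listed at 0 (50.3, 42.5 and 41.5), and the highest tumour was another for each: LPS 1, LPS 4 and LPS 2. Of the 17 members with an LPS mean of at least 10 FPKM, LPS 6 was the highest tumour for 9, namely Itgav, Itgb5, Itga4, Itga1, Itgb1, Lama2, Lama4, Lamb1 and Lamc1, whereas it was the highest for 11.5% of all 6607 rows at that level. LPS 5 was the lowest for 5 of the 17, and for 45.6% of all such rows.

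Age within the tumours, 9 to 12 months, was not tied to any member by the test. The same filter within the 8 tumours (1 FPKM or more in 4 or more) passed 27 members, counting the row that holds Itga10. Of these, limma called 0 for a slope of log2(FPKM + 1) per month, and 0 had an unadjusted p below 0.05. Over all 13280 rows 0 were called (0.00%), and 228 had an unadjusted p below 0.05 (1.72%). Itga6 had the steepest slope among the abundant members of at least 10 FPKM, at -0.31 per month (unadjusted p = 0.0995).

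Genes that work with integrins and laminins were described from 4 lists. Of 27 tested genes for adaptors and kinases of focal adhesions, where integrins meet actin, 13 were higher and 6 lower, with a median log2 difference of 0.27. Together 70.4% of them were called, against 46.0% of all rows tested (18.9% higher and 27.0% lower). Src, a tyrosine kinase of adhesions, rose from 5.38 ± 0.390 to 61.7 ± 19.0 FPKM and Tns3, a tensin that binds beta tails, from 9.68 ± 1.74 to 34.1 ± 7.57 FPKM. Lims2 fell from 28.5 ± 4.56 to 2.16 ± 1.99 FPKM and Ptk2b, the kinase PYK2, from 19.98 ± 5.12 to 3.96 ± 2.68 FPKM. Of 15 other basement membrane genes 6 were higher and 2 lower (53.3% called, median 0.73). In that list Agrn, the heparan sulphate proteoglycan agrin, which binds laminin, rose from 12.4 ± 3.14 to 89.5 ± 25.6 FPKM, and Col18a1, the gene of a basement membrane collagen, had the largest log2 difference at 2.88. Smoc2 fell from 10.6 ± 2.38 to 2.28 ± 1.91 FPKM and Hspg2, the gene of perlecan, from 132 ± 18.4 to 79.2 ± 36.0 FPKM.

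Among 9 other laminin receptors 2 were higher and 2 lower (median -0.06), a share of 44.4% that is near the 46.0% of all rows. Sdc1, a syndecan, rose from 5.28 ± 0.283 to 39.2 ± 32.0 FPKM and Bcam, a receptor for the chain that Lama5 encodes, from 20.3 ± 0.622 to 51.1 ± 31.2 FPKM. Sgcd, a sarcoglycan of the dystrophin complex, fell from 23.1 ± 5.62 to 0.412 ± 0.607 FPKM and Rpsa from 61.0 ± 11.2 to 43.1 ± 11.5 FPKM, while Dag1, the gene of dystroglycan, which binds the chains of Lama1 and Lama2, was not called (61.6 ± 9.33 and 73.3 ± 54.9 FPKM). Among 16 tested integrin ligands outside the laminins 2 were higher and 2 lower (median 0.51), a share of 25% that is below the 46.0% of all rows. Vtn, vitronectin, a ligand of alphaV integrins, rose from 10.2 ± 1.55 to 44.0 ± 32.7 FPKM and Emilin1 from 9.74 ± 1.36 to 38.9 ± 25.1 FPKM. Icam1 and Icam2, ligands of LFA-1, were lower at 4.21 ± 2.33 and 8.70 ± 3.67 FPKM, against 11.4 ± 3.36 and 18.6 ± 2.98 FPKM in WAT. Fn1, fibronectin, the ligand of the receptor with alpha5, was not called (104 ± 27.99 and 146 ± 62.7 FPKM).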

How the data were processed

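The deposited table holds FPKM, 1 value per gene locus and library, in 12 libraries of ribosomal RNA-depleted, stranded total RNA, per the labels' protocols. The submitters' processing notes name Cufflinks 2.2.1, Cuffdiff 2.2.1, TopHat2 2.1.0, Trimmomatic and Bowtie2 and the build GRCm38, without their roles. FPKM sums ran from 771665 to 996090, and since fragment totals were not used here, depth is unknown and no counting intervals are given. The value of 1 fragment was approached as the 5th percentile of non-zero products of FPKM and length over 2154 single-transcript genes longer than 2000 bases.

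LPS and WAT were compared by limma 3.58.1 (R 4.3.3) on log2(FPKM + 1), which understates changes of low genes, two-sided, using robust eBayes with a mean-variance trend. P-values were adjusted by Benjamini-Hochberg over all 14821 rows tested, threshold 0.05. Age was fitted as a slope in the 8 LPS libraries. The fits were tested on simulated data. For LPS against WAT the simulation gave both groups the same spread, so the wider spread of the tumours was left out. The members and gene lists were chosen with earlier results of these data known. Named in full were the 5 integrins and 3 laminins with the largest called difference each way (only 2 laminins were called each way), the most abundant of each family not called, Itgb1 and Itgb2. Other pathway genes named are the 2 largest called each way per list, and Itga7 in full, Dag1, Fn1 and the paralogs in the closing observations, chosen after their values were seen. In overlapping loci fragments may be divided between genes. Values of 1 laminin chain and of the row that holds Itga10 are not reported here. Promoters are from RefSeq. Protein sequences were not used here. Coordinates of 37 members were matched to GENCODE M21.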

Additional observations from a re-analysis of the deposited data

Results flagged for a closer look

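In 13 of 72 groups of values (36 members in WAT and in LPS) the highest or lowest library stood apart from the others by Dixon's criterion. For normally distributed values chance flags about 1 in 20 such groups. Whether FPKM meets that condition was not checked, so the count cannot be set against that rate. All 13 flags were of the highest library. No explanation was tested for any of them. Among the tumours LPS 6 stood high for Itga8 (13.4 FPKM, next 4.68 FPKM), Itgb5 (55.8, next 38.7 FPKM) and Lamb3 (0.158, next 0.0715 FPKM). LPS 1 stood high for Itgal (7.05, next 3.00 FPKM), Itgb7 (6.03, next 2.21 FPKM) and Lamc3 (14.1, next 5.95 FPKM). LPS 2 stood high for Itga6 (75.5, next 42.9 FPKM) and Lama3 (14.6, next 4.01 FPKM). LPS 5 stood high for Itga11 (0.817, next 0.374 FPKM) and Lama1 (0.391, next 0.0662 FPKM), and LPS 8 for Itgb6 (1.73, next 0.149 FPKM). In WAT, WAT 2 stood high for the leukocyte genes Itga4 (26.5, next 16.0 FPKM) and Itgb2 (23.5, next 15.1 FPKM), and it also held the highest summed lymphocyte markers (211 FPKM, others at most 138 FPKM).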

How the results depend on the processing

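Of 9 members called higher, 5 kept the call under all alternatives that gave a value, of 9 called lower 8 did, and of 14 not called 10 were not called in any, 3 of which changed sign in at least 1. Leaving out each library in turn gave 6 to 9 integrins higher, 6 to 8 lower, and 2 and 2 laminins. Without WAT 1 and WAT 4, an alternative chosen after seeing the data, 5 integrins and 0 laminins were higher, from 2 remaining WAT libraries. LPS 8, which also held muscle markers, was kept there. Higher calls over all rows also fell under that setting, from 2806 to 1462. Requiring a mean of 5 FPKM left 13 integrins and 6 laminins tested, with 1 integrin and 1 laminin lower. Quantile normalization took the all-row median from -0.05 to 0.10 and the share of lower calls from 58.8% to 45.2%, with 8 integrins higher and 6 lower and 3 laminins higher and 2 lower. Without a filter 67.1% of calls were lower. Direction turned for members without a call: Itga8 without LPS 6 (-0.036; -0.036 to 0.44 leaving out each library), Itga2 after quantile normalization (0.12), and Lama4 without WAT 4 (-0.013), LPS 2 (-0.037), LPS 6 (-0.11; -0.11 to 0.17 leaving out each library) or WAT 1 and WAT 4 (-0.0064); the cause was not tested. Same-numbered libraries correlated at -0.02 to 0.09 in their deviations, and differently numbered ones at -0.27 to 0.28. That shows no pairing by number, but so few pairs cannot exclude it. A replicate block over WAT 1 to 4 and LPS 1 to 4 gave 6 integrins higher and 8 lower and 3 laminins higher and 2 lower. The same libraries without it gave 8, 8, 3 and 2. Age slopes gave 0 calls under each alternative. Depth limits Lama1, Itgad, Itgb6 and Lamb3, which lie at or near a few fragments in most tumours. Itga11 came near that level in LPS 2, LPS 3, LPS 4 and LPS 6 (0.0274 to 0.0906 FPKM), and Itgb8 in LPS 1 (0.0470 FPKM).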

Other observations

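Among the adaptors of integrin tails some paralogs were called in opposite directions and others were not, a comparison made after the values were seen. Lims1 and Lims2 encode the PINCH proteins that link integrin-linked kinase to adhesions: Lims1 was higher in LPS, at 86.4 ± 14.1 FPKM (SD, n = 8) against 30.6 ± 2.31 FPKM for WAT (SD, n = 4), while Lims2 fell. Parva, the widely expressed parvin, rose from 23.1 ± 4.52 to 54.2 ± 18.6 FPKM and Parvb from 4.29 ± 0.701 to 8.11 ± 2.43 FPKM, whereas Parvg, the parvin of blood cells, fell from 6.29 ± 1.84 to 2.60 ± 1.39 FPKM. Fermt2, the kindlin of mesenchymal cells, rose from 47.3 ± 3.77 to 123 ± 45.4 FPKM, and Fermt3, the kindlin of blood cells, was not called at 12.4 ± 4.61 and 7.66 ± 3.71 FPKM. Ptk2, the focal adhesion kinase, rose from 13.8 ± 0.584 to 28.3 ± 5.21 FPKM, while its relative Ptk2b fell. The difference between paralogs was not tested itself. Of 7 leukocyte markers, not each of which is carried by every leukocyte, 4 were lower, 1 higher (Fcer1g) and 2 not called (Cd53 and Tyrobp). Their sums overlapped, at 365 to 758 FPKM across WAT and 105 to 555 FPKM across LPS. The part of these markers in the values of the blood cell paralogs was not tested.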
